A study of Caenorhabditis elegans with 2 samples.

Results

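The 6 GATA factor genes of the intestine and epidermis of Caenorhabditis elegans, elt-2, elt-7, elt-1, elt-3, egl-18 and elt-6, were chosen by name among 19973 annotated protein-coding genes. Each locus was taken from 5 kb before the 5′ end of the gene to 2 kb past its 3′ end, and a peak belonged to a locus when its summit lay inside. UNC-62 occupancy had been mapped by ChIP-seq, in which the DNA that comes down with a protein is sequenced, in larvae of the first stage (L1). There was 1 group of 2 biological replicates. All animals were of strain OP600, with the allele unc119(ed3) and the transgene wgIs600, which holds unc-62 fused to TY1, EGFP and FLAG tags together with unc119. Both sexes were pooled, and the age is given as unknown. The labels give the antibody's target as unc-62 in one place and as eGFP-unc-62 in another, so whether untagged UNC-62 was also recovered is not known. A strain lacking the transgene was not analysed here. Whole animals were used, so binding in few cells and weak binding in many cells cannot be told apart at any locus.

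GATA factors are zinc-finger proteins that bind short DNA sites with GATA at their core. In the worm, elt-2 is the main GATA factor of the differentiated intestine and elt-7 has a partly overlapping role there, while elt-1 specifies epidermal fate in the embryo and elt-3 acts in the epidermis after it. The neighbouring genes egl-18 and elt-6 act in the seam cells, the stem-like cells of the lateral epidermis, where Wnt signalling controls them. UNC-62 is a homeodomain protein of the Meis class that works with a Pbx-class partner.

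No strong UNC-62 peak lay at any of these 6 loci. The authors' list filtered by irreproducible discovery rate (IDR), a comparison of peak ranks in the replicates, had 119 peaks, and 0 of 6 GATA loci held one, against 1.48% of all protein-coding loci with windows drawn the same way. At that share most sets of 6 loci would hold none, so the count does not set these loci apart. The 6 windows held 30 different entries of the pooled list, a list of 30000 entries that runs down to weak signal. The intestinal genes had 3 of these entries and the epidermal and seam genes had 27. The strongest entry lay in elt-1 and ranked 3826, with a signal value, the authors' own measure of enrichment, of 16.6. The weakest IDR peak had 35.0. The authors' −log10 q-value, which is larger for surer entries, ran from 0.0241 to 0.128 over the 30 entries. None of them would thus pass a usual q-value cutoff, and counts and shares of these entries describe the list and not established binding.

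The sequences below are the 201 bases around the summit, on the plus strand of WBcel235 (ce11), of a choice of entries. They are the 2 strongest entries of elt-1, the strongest entry shared by egl-18 and elt-6, and the strongest of elt-7. No entry of elt-3 is among them. Capitals mark matches to the motifs searched on both strands, which were the Meis site TGACAG, the Pbx-Meis site TGATTGAC, the Hox-Pbx site TGATNNAT, the GA repeat GAGAGA, the E-box CACCTG and 4 GATA forms. Form 1 is AGATAA, form 2 is AGATAG, form 3 is TGATAA and form 4 is TGATAG. The sequences were read from the RefSeq copy of the genome.
elt-1, strongest entry: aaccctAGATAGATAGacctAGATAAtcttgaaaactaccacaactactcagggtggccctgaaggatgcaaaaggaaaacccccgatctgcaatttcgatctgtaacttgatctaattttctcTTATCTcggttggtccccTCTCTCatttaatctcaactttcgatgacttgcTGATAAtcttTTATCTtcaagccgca
elt-1, second entry: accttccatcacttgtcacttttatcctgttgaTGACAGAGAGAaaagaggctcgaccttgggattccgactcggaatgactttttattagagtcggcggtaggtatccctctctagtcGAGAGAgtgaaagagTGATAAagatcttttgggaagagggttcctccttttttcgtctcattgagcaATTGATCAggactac
egl-18 and elt-6, shared entry: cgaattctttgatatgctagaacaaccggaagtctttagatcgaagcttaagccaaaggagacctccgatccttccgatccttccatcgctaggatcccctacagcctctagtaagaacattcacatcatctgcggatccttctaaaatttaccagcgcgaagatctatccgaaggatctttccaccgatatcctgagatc
elt-7, strongest entry: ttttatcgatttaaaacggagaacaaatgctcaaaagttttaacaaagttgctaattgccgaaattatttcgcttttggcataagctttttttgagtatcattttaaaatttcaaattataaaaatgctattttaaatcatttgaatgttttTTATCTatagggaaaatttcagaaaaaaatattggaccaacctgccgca

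The first elt-1 sequence (chrIV:9615576-9615776) lies in an intron and holds 6 matches to GATA forms and 1 to the GA repeat. The second (chrIV:9617446-9617646), also in an intron of elt-1, holds a Meis site 67 bases before the summit that overlaps a GA repeat. It also holds a second GA repeat, a GATA form and a Hox-Pbx site. The egl-18 and elt-6 sequence (chrIV:1916679-1916879), in an intron of egl-18, holds 0 matches to any of the 9 motifs. The elt-7 sequence (chrV:4774818-4775018) is intergenic and holds 1 GATA form. A match is a run of letters and not a measured site.

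**Figure D1:**
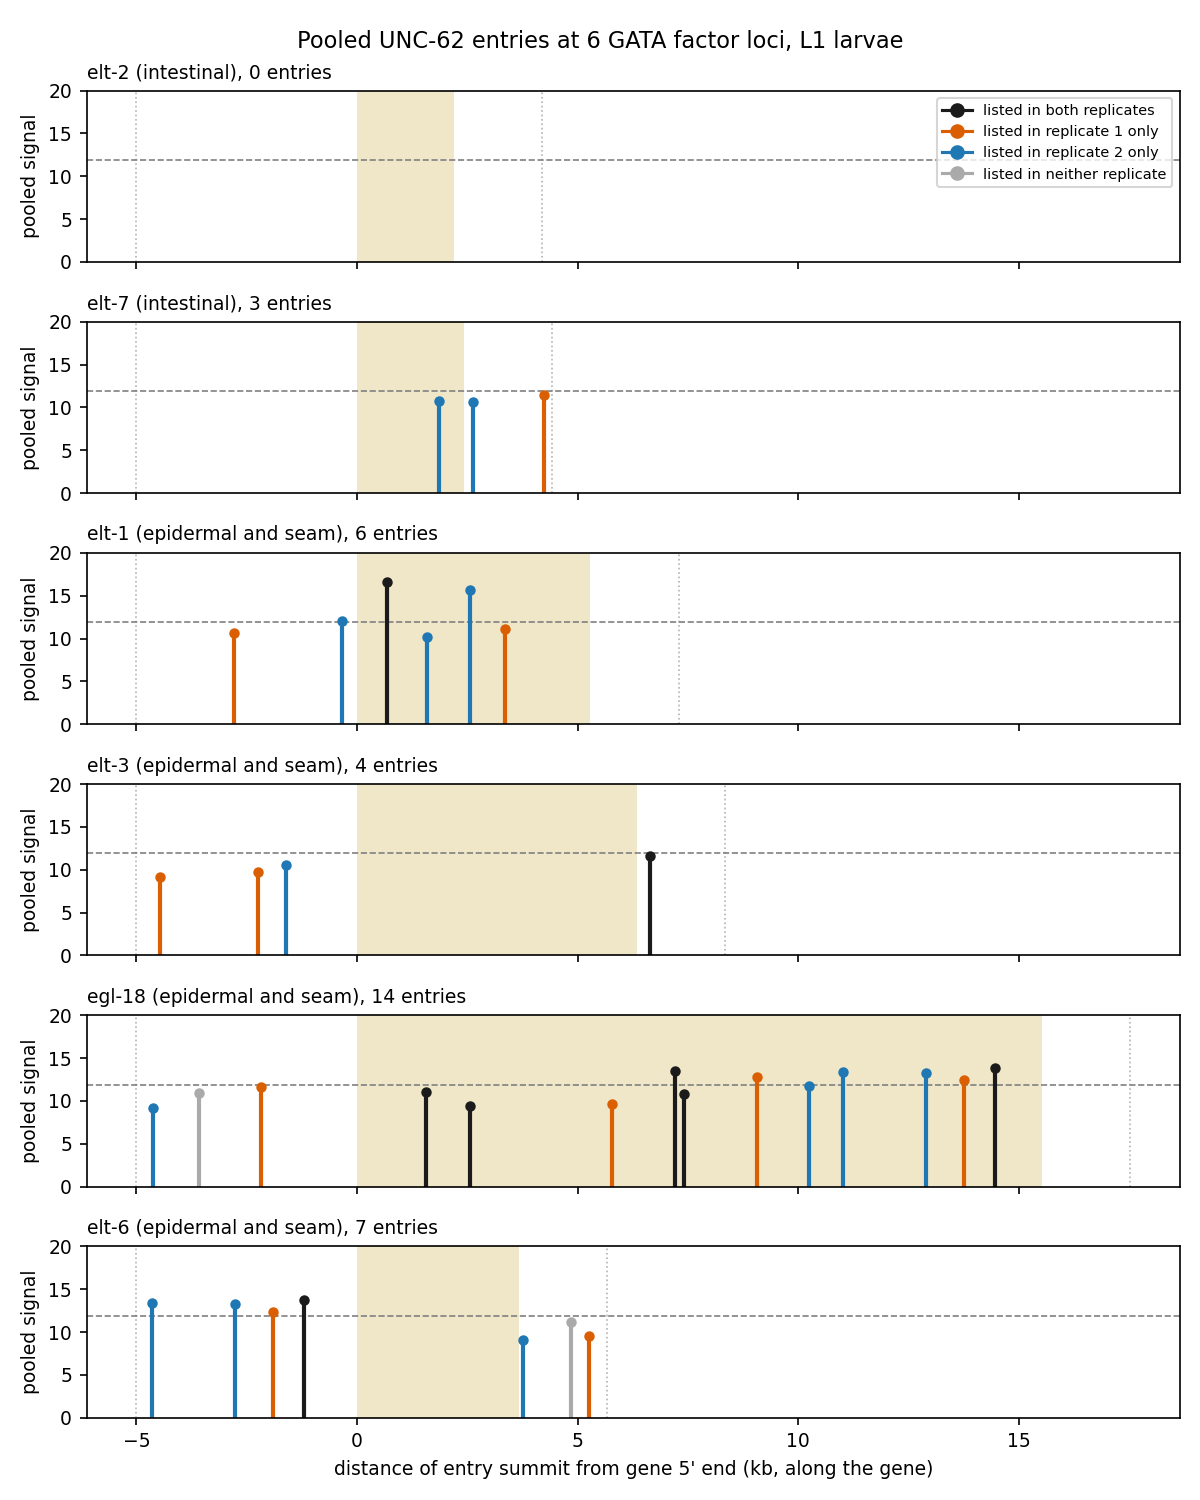
Each panel is 1 locus, with the distance of the entry summit from the gene's 5′ end in kb on the x axis and the signal of the pooled entry on the y axis. Shading is the gene, dotted lines are the ends of the window, the dashed line is the median of the pooled list (11.9), and colours show in which replicate lists the entry has a match. The elt-2 panel is empty, the 3 elt-7 entries stay under the dashed line, and only elt-1 has entries above 13.8.

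The intestinal loci held 0 and 3 pooled entries, against 4 or more at each other locus, and of the loci with a window of like length to that of elt-7, 54.6% had fewer entries than it did. At elt-2 (chromosome X, 10481240 to 10483441, plus strand) the window of 9.2 kb held 0 pooled entries, and 11.4% of the 14997 loci with a window of like length, within 20%, held none either. Over all protein-coding loci 90.3% held a pooled entry, against 5 of 6 GATA loci. The nearest pooled summit was 7414 bp downstream of the elt-2 5′ end, outside the window, with a signal of 9.69 and rank 25875. In the elt-2 window 99.6% of 31-base words occurred once in the genome, against 91.3% genome-wide, so little of it is repeated sequence.

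The lists of the single replicates did reach elt-2. Replicate 1 had an entry of signal 5.82, 906 bp before the 5′ end, and one of 5.65 at 97 bp, in a coding exon. Replicate 2 had 1 entry of 5.56, 3010 bp past the 5′ end. None met an entry of the other replicate or of the pooled list, and all lay close to the floors of their lists, 5.17 in replicate 1 and 5.33 in replicate 2.

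At elt-7 (chromosome V, 4770670 to 4773086, plus strand) there were 3 pooled entries, all weaker than the median entry. The entry in its intron, 1848 bp from the 5′ end, had a pooled signal of 10.7, no replicate 1 match and a replicate 2 signal of 6.94. The next, 2621 bp from the 5′ end and so past the 3′ end, had 10.6 pooled and 5.55 in replicate 2, again with no replicate 1 match. In that entry 75.8% of 31-base words were unique. The strongest, 4248 bp from the 5′ end, had 11.4 pooled and 7.23 in replicate 1, with no match in replicate 2. Its nearest 5′ end was that of C18G1.1, 3042 bp away, and not that of elt-7. The 3 entries were each listed by 1 replicate only, and in pooled rank they ran from 17078 to 21000. No pooled entry lay in the 5 kb upstream of elt-7, but replicate 2 had one of 7.16 there, 1035 bp before the 5′ end, that no other list matched.

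At elt-1 (chromosome IV, 9614995 to 9620280, plus strand) 4 of 6 pooled entries lay in introns and 2 upstream. The strongest, 681 bp into the gene, had a pooled signal of 16.6, with 5.28 in replicate 1 and 15.2 in replicate 2. The replicate 1 match ranked 28937 and its summit lay 210 bp from the pooled one, while the replicate 2 match ranked 656 at the same summit. The second, 2551 bp into the gene, had 15.7 pooled and 19.6 in replicate 2, where it ranked 259, and had no match in replicate 1. Both entries were thus far stronger in replicate 2 than in replicate 1.

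The other elt-1 entries were weak. Their pooled signals were 10.7 at 2777 bp upstream, 12.1 at 348 bp upstream, 10.2 at 1582 bp and 11.1 at 3344 bp. Each had a match in 1 replicate only, of signal 6.98, 5.88, 7.49 and 7.11 in the same order, the first and last in replicate 1. Of the entries of single replicates that no other list matched, replicate 1 had 3 upstream, of 5.67 to 6.43, and replicate 2 had 1 of 8.38 in an intron. A replicate 2 entry ranked within the first 595, 5 times the length of the IDR list, lay at 1 of 6 GATA loci, elt-1, against 6.08% of all loci. For replicate 1 the number was 0 of 6, against 5.79%, and for the pooled list 0 of 6, against 5.99%.

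At elt-3 (chromosome X, 13934874 to 13941216, plus strand) the 4 pooled entries lay outside the gene. The strongest, past the 3′ end at 6647 bp, had a signal of 11.6, with 6.12 in replicate 1 and 7.10 in replicate 2, whose summits lay 76 and 77 bp on either side. Of all 30 entries it was the only one with a summit within 100 bp in both replicates, against 15.0% of all pooled entries. Upstream, the entry at 4475 bp had 9.15 pooled and 11.2 in replicate 1, rank 2186, and no match in replicate 2. Its nearest 5′ end was that of meg-1, 765 bp away. The entry 2247 bp upstream had 9.72 pooled and 7.13 in replicate 1, and that 1619 bp upstream had 10.6 pooled and 5.48 in replicate 2. Inside elt-3, where the pooled list had none, replicate 1 had an intronic entry of 5.98 and replicate 2 had intronic entries of 6.62 and 5.53 and one of 8.11 in the 3′ UTR.

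The genes egl-18 (chromosome IV, 1902322 to 1917840) and elt-6 (chromosome IV, 1917977 to 1921643) lie next to each other on the plus strand, and their windows shared 4 entries. The window of egl-18 held 14 pooled entries, 11 of them in its introns, and that of elt-6 held 7. The upstream entries of elt-6 were all in introns of egl-18, so neither gene can be given them by position. Among loci of like window length 95.7% had fewer entries than egl-18 and 96.3% had fewer than elt-6.

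The shared entry 1198 bp upstream of elt-6 was the strongest of both loci, with a pooled signal of 13.8 (rank 8798), 6.92 in replicate 1 and 7.94 in replicate 2. The replicate 1 summit lay 180 bp away from the pooled one. The other shared entries, at 4652, 2754 and 1906 bp upstream of elt-6, had 13.4, 13.3 and 12.4. The first had 8.85 and the second 9.64 in replicate 2, and the last had 5.90 in replicate 1. In egl-18 these 4 entries lie 11003 to 14457 bp from the 5′ end. The entry 7209 bp into egl-18 had 13.5, with 9.01 in replicate 1 and 6.53 in replicate 2, and a second entry 200 bp further on, of signal 10.8, met the same replicate entries.

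The entry 9076 bp into egl-18 had 12.8 pooled and 11.2 in replicate 1, rank 2188, and no match in replicate 2. Inside egl-18, those at 1560 and 2553 bp were in both replicates, with 11.1 pooled, 6.64 in replicate 1 and 6.92 in replicate 2 at the one and 9.38, 6.12 and 6.30 at the other. Those at 5773 and 10235 bp had 9.61 pooled with 5.20 in replicate 1, and 11.8 pooled with 8.09 in replicate 2. The entries inside egl-18 were thus split between those of both replicates and those of 1.

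Upstream of egl-18, the entry at 4617 bp had 9.22 pooled and 8.37 in replicate 2, and the one at 2165 bp had 11.6 pooled and 8.72 in replicate 1. The entry at 3585 bp, of 10.9, was listed in neither replicate, and 79.7% of its 31-base words were unique. Single-replicate entries in egl-18 reached 8.06 in replicate 1 and 7.36 in replicate 2, with no match elsewhere. In elt-6, none of the entries lay in the gene, and the 3 past its 3′ end had 9.10 (6.61 in replicate 2), 11.2 (neither replicate) and 9.56 (6.68 in replicate 1). They were nearest to the 5′ end of denn-4. Replicate 1 had an unmatched entry of 8.55 in an intron of elt-6, its strongest at that locus. In the pooled list no entry of this pair of genes ranked above 8798, while in the replicate lists their best ranks were 2188 in replicate 1 and 5450 in replicate 2.

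Set side by side, the intestinal loci had 0.161 pooled entries per kb over 18.6 kb and the epidermal and seam loci 0.52 per kb over 52.0 kb, with shared entries counted once. The direction was the same in each replicate list, with 0.161 against 0.423 per kb in replicate 1 and 0.215 against 0.443 per kb in replicate 2. Genome-wide there were 0.299 entries per kb. The GC content was 34.6% in the elt-2 window and 36.3% in that of elt-7, and ran from 34.6% at elt-3 to 42.5% at elt-6, against medians of 35.2 to 35.6% over loci of like length. The part of GC content in the difference was not tested. Loci are not replicates of a condition, and no test was made of 2 loci against 4.

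The difference in entries did not extend to elt-3, which had 0.3 entries per kb and the 4 entries that were the median of loci of its length. By entries per kb the order was elt-6 (0.656), egl-18 (0.622), elt-1 (0.488), elt-7 (0.319), elt-3 (0.3) and elt-2 (0). The intestinal gene elt-7 thus stood above the epidermal gene elt-3.

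The strongest pooled entry had a median signal of 11.4 at the intestinal loci, which is that of elt-7 since elt-2 had none, and 13.8 at the epidermal and seam loci. With 10 kb upstream in place of 5 kb these medians were 14.1 and 14.3. With only the entries nearest to the gene's own 5′ end they were 10.7 and 13.6. Only elt-1 exceeded 14.5, the median strongest entry over all protein-coding loci with an entry, and 3 loci did so against the median of windows cut to 2 kb upstream and the 3′ end. Longer windows hold more entries, and among loci of like window length a weaker strongest entry, or none, was found for 28.0% at elt-7, 65.4% at elt-1, 14.4% at elt-3, 16.7% at egl-18 and 46.9% at elt-6. The replicate lists gave other shares. In replicate 1 they were 16% at elt-2, 33.2% at elt-7, 21.1% at elt-1, 74.5% at elt-3, 59.1% at egl-18 and 48.4% at elt-6. In replicate 2 they were 12.8% at elt-2, 30.9% at elt-7, 96.6% at elt-1, 27.7% at elt-3, 31.5% at egl-18 and 61.1% at elt-6. The lists thus disagreed at elt-1, elt-3 and egl-18. The intestinal loci were at or under 33.2% wherever they had a value, and elt-2 had none in the pooled list. Low shares were not theirs alone. The share of elt-7 was above those of elt-3 and egl-18 in the pooled list, of elt-1 in replicate 1 and of elt-3 in replicate 2.

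**Figure D2:**
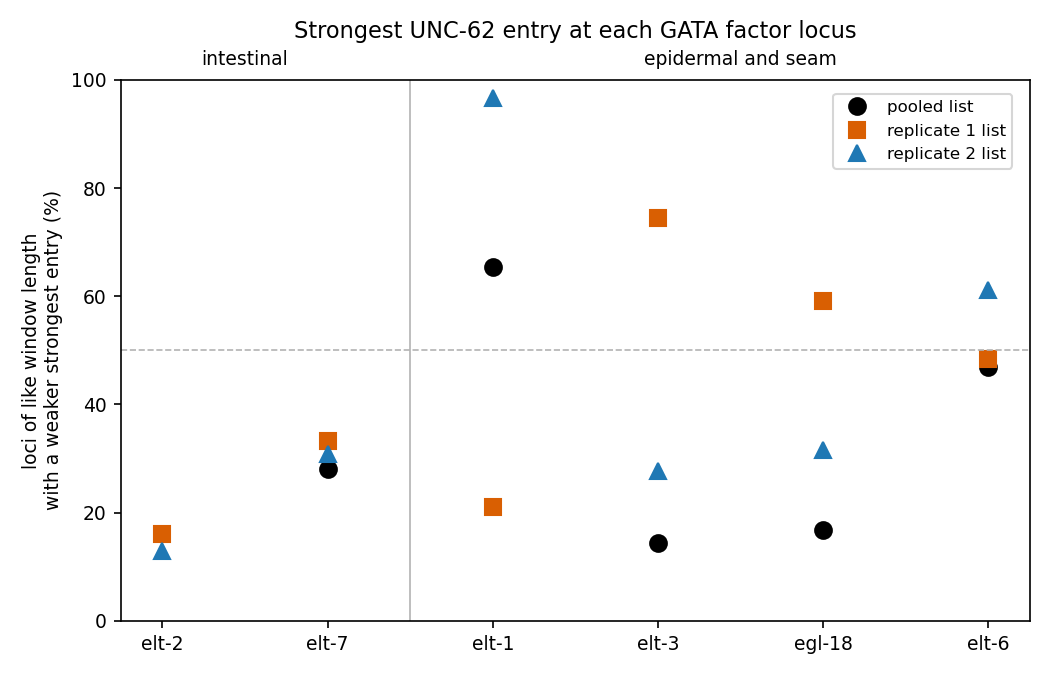
The y axis gives the percentage of loci with a like window length whose strongest entry was weaker, or that had none, for the pooled list and for each replicate list, and the x axis gives the 6 loci. The elt-2 locus has no pooled point, both intestinal loci lie at or under 33.2% in every list they have a point for, and the replicate points of elt-1 lie apart at 21.1% and 96.6%.

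The share listed in both replicates was counted by entry and by locus. With 30 entries and 6 loci, no difference from the whole list was tested. Of the 30 entries, 7 (23.3%) overlapped an entry of both replicates by at least 1 bp, against 30.4% of all pooled entries. Among these 7, the overlapping entries 7209 and 7409 bp into egl-18 met the same entry of each replicate. When the replicate entries had to cover the pooled summit, the count was 3. The intestinal loci had 0 of 3 such entries and the epidermal and seam loci 7 of 27. A further 10 entries met replicate 1 only, 11 met replicate 2 only and 2 met neither. Of 6 GATA loci 4 had an entry listed in both replicates, against 51.9% of all loci, whose windows were not matched for length. Those 4, elt-1, elt-3, egl-18 and elt-6, were also the ones whose strongest entry was listed in both, against 44.8% of all loci with an entry, but egl-18 and elt-6 share that entry, which leaves 3 different ones.

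**Figure D3:**
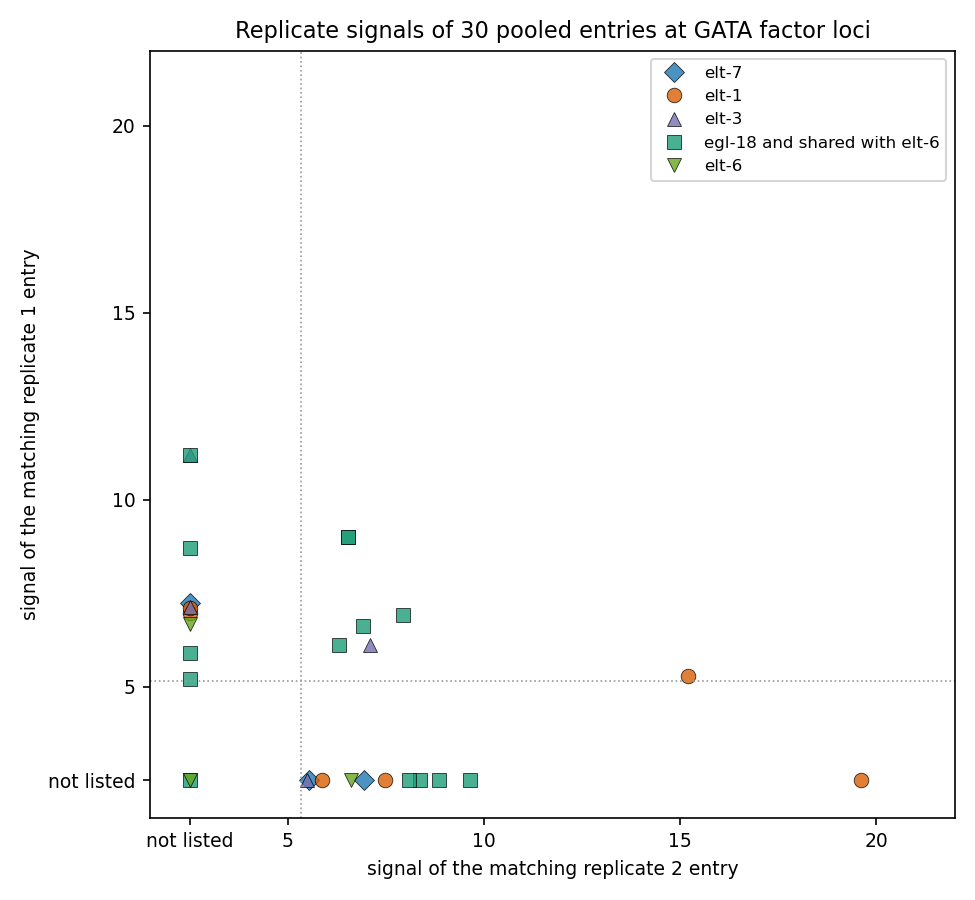
Each point is 1 of the 30 pooled entries, with the signal of its replicate 2 match on the x axis and of its replicate 1 match on the y axis. Dotted lines mark the floor of each list, entries with no match are drawn at "not listed", and points with equal values overlap. The elt-1 entries of 15.2 and 19.6 in replicate 2 stand at 5.28 and "not listed" in replicate 1.

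By position, 16 of 30 entries had their summit in an intron (53.3%) and 14 in intergenic sequence (46.7%), against 37.0% and 41.4% of all pooled entries. None lay in a coding exon, against 15.9% of all entries. The 5 kb upstream held 0 entries at both intestinal loci, 2 at elt-1, 3 at elt-3, 3 at egl-18 and 4 at elt-6. That was 0.4 to 0.8 per kb at the last 4 loci, against 0.304 per kb over all protein-coding loci. The 4 at elt-6 are the entries it shares with egl-18, and they count in the gene body of egl-18 too. With shared entries counted once, and those 4 given to the gene body, 8 lay upstream. In the gene body elt-7 had 0.414, elt-1 0.757 and egl-18 0.709 entries per kb, against 0.279 over all loci, while elt-2, elt-3 and elt-6 had none.

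Of the 9 motifs, the GA repeat was the one whose interval lay wholly above its share in the list within 100 bp of the summit. It was found within 100 bp of 8 of 30 summits (26.7%, exact 95% binomial interval 12.3 to 45.9%), against 10.8% of all pooled entries. Within 50 bp its share was 23.3% (9.93 to 42.3%) against 5.45%. Over whole entries its share was 30% (14.7 to 49.4%) against 17.0%, which lies inside the interval, and there GATA form 3 had 50% (31.3 to 68.7%) against 28.8%. By locus the GA repeat was at 0 of 3 entries at elt-7, 4 of 6 at elt-1, 1 of 4 at elt-3, 3 of 14 at egl-18 and 0 of 7 at elt-6. The 4 entries shared by the last 2 loci count at both. Intervals cover counting error only, and entries of 1 locus share their surroundings, so they are not independent. No allowance was made for reading the intervals of 9 motifs at several widths.

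A GATA form was found at 12 of 30 summits (40%), against 36.7% of all entries. By locus these were 1 of 3 entries at elt-7, 5 of 6 at elt-1, 2 of 4 at elt-3, 4 of 14 at egl-18 and 1 of 7 at elt-6. The 4 entries shared by egl-18 and elt-6 count at both, and the 1 at elt-6 is a shared entry. Form 1 was at 20% against 12.4%, form 2 at 10% against 5.47%, form 3 at 20% against 18.3%, and form 4 at 0 of 30 (upper bound 11.6%) against 7.58%. The Meis site was at 3 of 30 summits (10%, interval 2.11 to 26.5%) against 6.40%, of which 2 were at elt-1 and 1 at egl-18. The Hox-Pbx site was at 20% against 15.4%, the E-box at 3.33% against 4.5%, and the Pbx-Meis site at 0 of 30 against 0.6%.

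**Figure D4:**
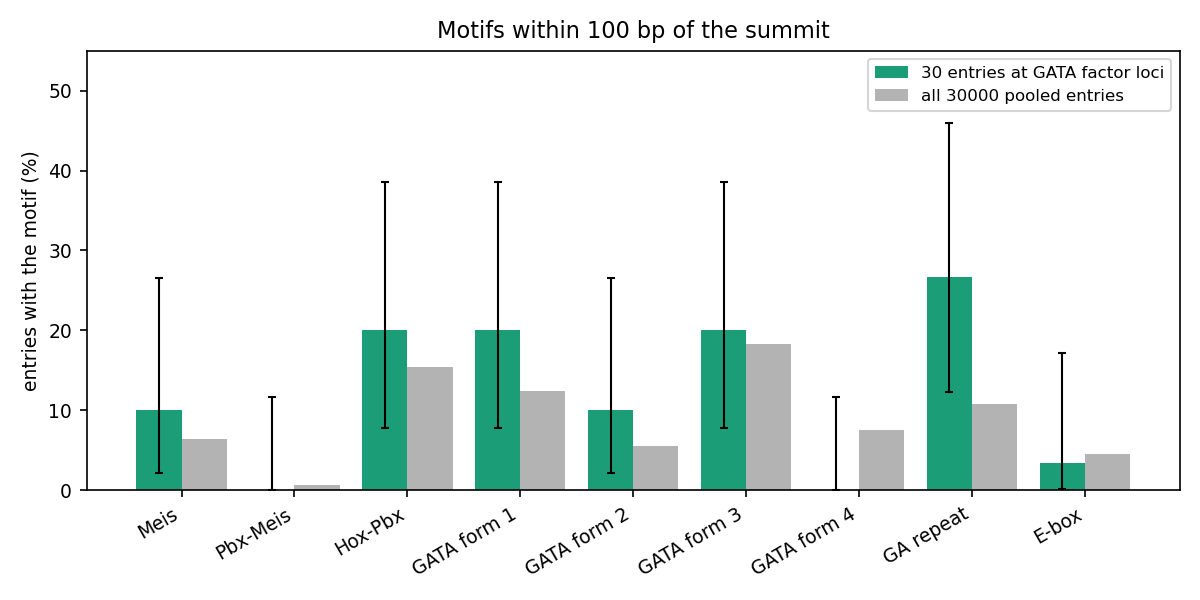
Bars give the percentage of entries with each motif within 100 bp of the summit, for the 30 entries at GATA factor loci and for all 30000 pooled entries. Error bars are exact 95% binomial intervals, and the GATA forms are numbered 1 to 4 as in the text. The GA repeat is the only motif for which the grey bar (10.8%) lies under the interval (12.3 to 45.9%).

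In the pooled list, the strongest entries of the other GATA factor genes were close to or under the 11.4 of elt-7. Of the 5, end-1 and end-3, which specify the endoderm, had strongest pooled entries of 11.5 and 9.91. The genes med-1 and med-2, which act before them, had 10.4 and 10.1, and elt-4, a small GATA gene beside elt-2, had none. The median of these pooled signals was 10.2, against 14.5 over all loci with an entry. In the replicate lists, the match at end-1 had 9.97 in replicate 1 (rank 4140). The match at end-3 had 9.81 in replicate 2 (rank 5051). Both were stronger than any replicate entry of the intestinal loci, at most 7.23 in replicate 1 and 7.16 in replicate 2. The matches at med-1 and med-2, 6.22 and 6.78 in replicate 1, were not. None of the 5 genes had an entry listed in both replicates, against 51.9% of all loci, whose windows were not matched for length.

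Among 8 endoderm specification genes outside the GATA family, 6 had an entry listed in both replicates, against 51.9% of all loci, and 1, sys-1, which encodes a beta-catenin, had an IDR peak in its window, against 1.48% of all loci. Its signal was 36.8, and its summit, 4848 bp from the 5′ end of sys-1, was nearer to that of eif-3.C. Among 15 intestine differentiation genes, 6 had an entry in both replicates and 0 an IDR peak, against the same 51.9% and 1.48% of all loci, with a median strongest signal of 13.9.

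Among 12 epidermal genes 5 had an entry in both replicates, against 51.9% of all loci, and 0 an IDR peak, against 1.48%. The cytoskeletal linker gene vab-10 had the strongest, 23.7 (rank 539), 12014 bp from its 5′ end, and the median was 14.2. Among 12 seam cell genes 8 had an entry in both replicates, against the same shares of all loci, and 1 had an IDR peak, of 57.9, at the Pbx-class gene ceh-20. The nuclear factor gene egl-27 followed with 29.4 (rank 216), nearest to the 5′ end of tbc-6, and the median was 17.2. The median of the seam cell list was thus higher than the strongest entry of any of the 6 GATA genes, of which the seam genes egl-18 and elt-6 reached 13.8. That median covers only the 10 of 12 genes with an entry, and windows were not matched for length. Several of the strongest entries, as at egl-27, were nearest to the 5′ end of another gene. With 1 group and lists chosen with these data in view, none of these differences was tested.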

How the data were processed

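ChIP-seq peak lists of 2 biological replicates, labelled as 1 group, were used in build ce11, whose sequence is WBcel235. Per the labels, libraries ran from 150 to 350 bp. Per the file headers and the deposited file lists, each replicate list came from that replicate's alignments and a control, and the pooled list from both. The authors deposited a signal value (column 7) and a −log10 q-value (column 9) for each entry. The aligner, the caller and the IDR cutoff are not given in the sources used here. Lists hold no read counts, so depth is unknown. Replicate 1 entries were 370 bp wide, all others 336 bp. ce10 lists were not analysed here.

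Genes came from Ensembl release 115. An entry belonged to a locus by its summit, and a replicate entry matched by an overlap of at least 1 bp, the nearest summit being taken. Features are those of protein-coding genes. Motif intervals are exact 95% binomial intervals. No test was made, since there is 1 group. The functions were tested on simulated data. The members, gene lists and rule for named genes (all 6 members, the other GATA genes, the genes nearest to the strongest entries, and up to 3 genes of each list with an IDR peak or a rank within the first 595) were chosen with earlier results of these data known. Python 3.11.15, numpy 2.4.6, pandas 2.3.3, scipy 1.17.1 and matplotlib 3.10.9 were used.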

Additional observations from a re-analysis of the deposited data

How the results depend on the processing

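Of 56 alternatives, 33 left a count, share or difference as reported within the limits set (a factor of 1.5 for counts, the spread of the 2 replicates for differences, the binomial interval for shares), and 2 were chosen after seeing the data. The count of 0 IDR entries was 0 in all 6 of its alternatives, but only the window from 10 kb upstream could have raised it. The window from 2 kb and the nearest entries take parts of windows that already held 0. The other alternatives counted entries by rank and not by IDR, within the first 119 of a replicate list or the first 595 of the pooled list. The 7 entries listed in both replicates became 3 with an overlap of 50% of the entry, 3 with the pooled summit covered, 3 among pooled entries above the list median, 0 with replicate entries above their list medians and 1 with summits within 100 bp. The 4 loci whose strongest entry was in both became 0 and 1 under the last 2 of these. The difference in strongest signal, intestinal minus epidermal and seam, was -2.40 and became -3.13 from 2 kb upstream to the 3′ end, -0.181 from 10 kb upstream, -2.97 with entries nearest to the gene, and -0.027 in −log10 q. With 1 replicate left out it ran from -3.38 to -3.28, on the scale of those lists. The difference in density, -0.359 per kb, became -0.253 from 10 kb and -0.297 with nearest entries, and with 1 replicate left out it ran from -0.262 to -0.228. The 1 locus above the median became 3 from 2 kb and 3 with nearest entries, and 2 to 3 with 1 replicate left out. The Hox-Pbx share was 3.33% within 50 bp, and TGATAA was at 50% of whole entries. The cause was not tested. No paired analysis was possible because there is 1 group. Unknown depth limits any comparison of replicates.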
